A study of Mus musculus with 8 samples.

Results

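The 47 genes described here encode proteins of the skeletal muscle sarcomere, of its calcium handling and of the energy supply of muscle fibres, measured in dorsal skin of hairless mice. They were chosen by name, and each was represented by the probe set (a group of array probes for 1 transcript) that the platform annotation assigns to that symbol alone and that had the highest mean over all 8 arrays. All 47 were found among the 18193 genes so represented on the array, and 43 of them lay above a filter that left out the lowest 30% of genes by mean level. The collagen group ate for 12 weeks a diet with collagen hydrolysate (peptides cut from fish-scale collagen), 2 g added to every 100 g of AIN-93G, a purified rodent diet, and the control group ate AIN-93G alone. Every mouse was a female of the hairless laboratory strain Hos:HR-1, 9 weeks old at the start and 21 weeks old when the skin was taken. The study held 8 mice per diet, and 4 arrays of each diet, called biological replicates in the labels, were measured. The mice were housed 4 to a cage, and which arrays share a cage is not labelled. Whole pieces of dorsal skin were powdered, so each value averages epidermis, dermis and whatever tissue was attached below.

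The sarcomere is the contractile unit of striated muscle, in which thick filaments of myosin slide along thin filaments of actin between Z-discs. A nerve impulse opens calcium channels of the sarcoplasmic reticulum, calcium binds to troponin on the thin filament, and the pump SERCA then returns it to the store. Fast and slow fibres use different copies of the same proteins, and the heavy chains of myosin define the fibre types: *Myh4* marks type IIB, *Myh1* type IIX, *Myh2* type IIA and *Myh7* the slow type I. Mouse back skin rests on the panniculus carnosus, a thin sheet of skeletal muscle that moves the skin and is known to consist mainly of fast fibres. The labels do not say how deep the skin was cut.

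On the log2 scale as deposited, values ran from 5.34 to 14.27 and hardly differed between arrays for most genes: the median SD of a gene over the 8 arrays was 1.18e-05. The sources used here do not give how the authors summarized and normalized them. A log2 difference of these values can therefore not be read as a fold change of RNA, nor the level of a probe set be set against that of another. Values are therefore given per array on the deposited log2 scale, in the order of replicates 1, 2, 3 and 4 of each diet, and differences in units of the SD within the diets, pooled over both. Depth or signal over background was not used here, and the number of arrays limits the precision. In whole tissue, fewer muscle fibres and less of a transcript per fibre cannot be told apart.

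On the deposited scale muscle genes were among the genes with the largest SDs, and most of them varied in the same arrays. The SD also differed between probe sets of a gene. For *Jph1* it was 4.78e-06 in the probe set used and 0.0102 in the other, so the ranking holds for the probe sets used. The median SD over the 8 arrays was 0.0717 for the 47 muscle genes, against 1.18e-05 for all 18193 genes. Of the 182 genes above the 99th percentile of this SD (0.00563), 37 were muscle genes of this list, which is 78.7% of its 47 members. The member just inside this limit was *Acta1* with an SD of 0.0105, and the member just outside was *Jph2* with 0.00267. Among the 20 genes with the largest SD 17 were members, and 26 were among the first 50. The 10 members outside the limit were *Myh3*, *Myh7*, *Myh8*, *Myl3*, *Tnnt1*, *Tnni1*, *Tnnc1*, *Tpm2*, *Jph1* and *Jph2*. They include both developmental myosins and 5 of the 8 slow fibre genes, while all 14 fast fibre genes lay inside it.

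**Figure D1:**
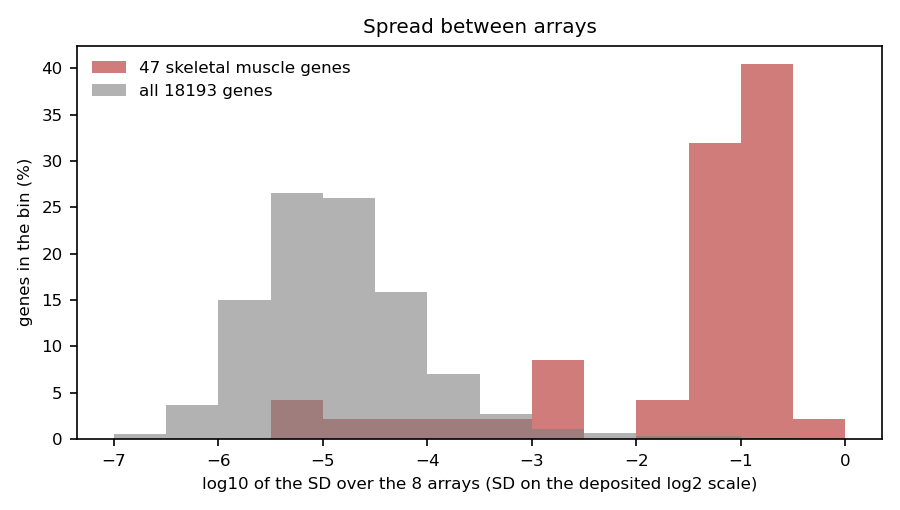
Distribution of the SD over the 8 arrays, as log10 of the SD on the deposited log2 scale (x axis), with the percentage of genes in each bin (y axis), for the 47 skeletal muscle genes and for all 18193 genes. Most muscle genes lie to the right of nearly all other genes, with a median SD of 0.0717 against 1.18e-05.

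Collagen replicate 1 and control replicate 4 had the lowest values of most muscle genes. These 2 arrays were the lowest 2 of 8 in 38 of the 47 members (80.9%), against 907 of all 18193 genes (4.99%). Among genes in neither this list nor the list of further muscle genes below it was 4.57%. Most genes are nearly flat, and above the 99th percentile of SD the shares were closer. There the 2 arrays were lowest in 36 of 37 members and in 61 of 113 genes in neither list (54.0%). Collagen replicate 1 was the lowest array in 24 members, control replicate 4 in 19, and another array in 4. Collagen replicate 3 was the highest array in 36 members, against 10.3% of all genes. The members' score, which averages the 47 deviations, each taken from the mean of that gene over all arrays and divided by its within-group SD, was -1.26, 0.13, 1.03 and 0.65 on the collagen diet and 0.12, 0.37, 0.16 and -1.21 on the control diet. The score spanned -1.26 to 1.03 within the collagen diet and -1.21 to 0.37 within the control diet. The diets overlapped, and each held 1 array far below its other 3. Because the genes were listed with results of these data known, the score is given as a description, with no test.

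One order of the collagen arrays was found in most members, and the control arrays had several. In 33 of 47 members (70.2%) the collagen arrays ran, from low to high, as replicates 1, 2, 4 and 3, an order that 4.71% of all genes had. The commonest order of the control arrays was replicates 4, 3, 1 and 2, in 15 members (31.9%) and 6.78% of all genes. It was followed by replicates 4, 1, 3 and 2, in 11 members (23.4%) and 6.02% of all genes. Control replicate 4 was the lowest control array in 41 members, while the highest was replicate 2 in 29, replicate 3 in 16 and replicate 1 in 2.

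**Figure D2:**
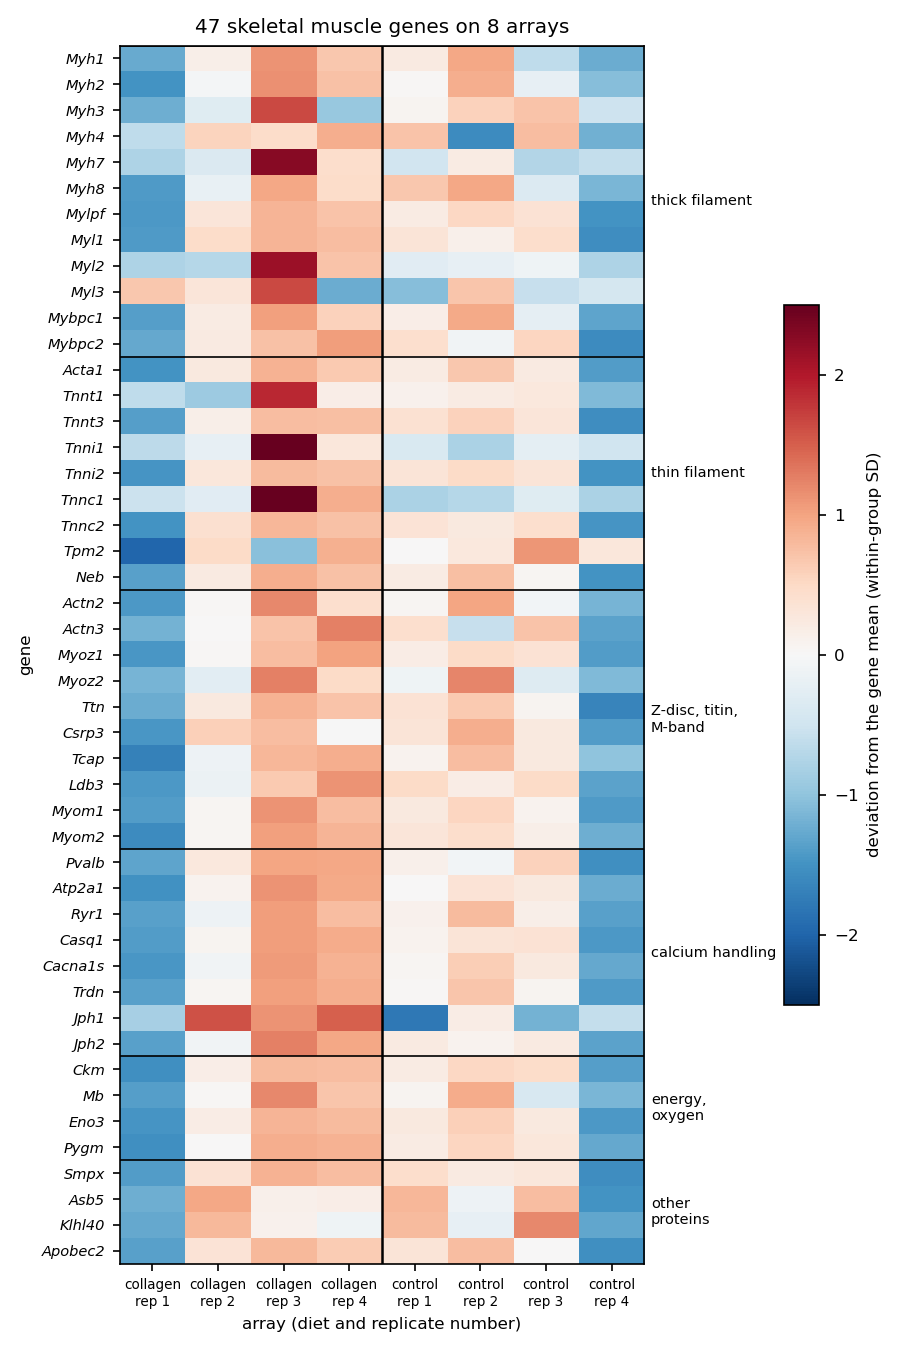
Deviation of each of the 47 muscle genes (rows, grouped by role) from its own mean over the 8 arrays, in within-group SD (colour, limited to 2.5 on either side), with collagen-diet arrays to the left of control-diet arrays. Collagen replicate 1 and control replicate 4 are low in nearly all rows, and collagen replicate 3 is high in most.

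Among thick filament genes, which encode myosin and the proteins bound to it, 8 of 12 had their lowest values in collagen replicate 1 and control replicate 4. *Myh2* (1425153_at), the type IIA heavy chain, had the largest SD of all genes on the array, 0.490, with 7.86, 8.62, 9.25 and 9.03 on the collagen diet and 8.67, 9.13, 8.54 and 8.09 on the control diet. *Myh4* (1427026_at), the type IIB heavy chain, had 9.72, 9.97, 9.95 and 10.04 on the collagen diet and 10.00, 9.53, 10.01 and 9.61 on the control diet. The arrays low in *Myh2* were collagen replicate 1 and control replicate 4, whereas *Myh4* was lowest in control replicate 2, where *Myh2* was the second highest of all 8. *Myh1* (1427868_x_at), the type IIX heavy chain, had 11.11, 11.18, 11.23 and 11.21 on the collagen diet and 11.18, 11.22, 11.14 and 11.11 on the control diet and followed *Myh2*. The suffix of its probe set marks probes that may bind related transcripts, so its split from the other heavy chains is uncertain. *Mybpc2* (1455736_at), fast myosin binding protein C, had 8.81, 9.02, 9.09 and 9.13 on the collagen diet and 9.05, 8.98, 9.06 and 8.77 on the control diet. The fast light chains *Mylpf* (1448371_at) and *Myl1* (1452651_a_at), which stabilise the lever arm of myosin, varied little outside the 2 low arrays. *Mylpf* had 11.02, 11.13, 11.17 and 11.16 on the collagen diet and 11.13, 11.15, 11.14 and 11.02 on the control diet. *Myl1* had 10.46, 10.58, 10.60 and 10.60 on the collagen diet and 10.57, 10.56, 10.58 and 10.45 on the control diet.

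Thin filament genes gave the same 2 low arrays in 5 of 9 cases. *Neb* (1435355_at), nebulin, the ruler of the thin filament, had 8.35, 8.59, 8.69 and 8.67 on the collagen diet and 8.59, 8.67, 8.56 and 8.33 on the control diet. *Tnnt3* (1450118_a_at), the fast troponin T that ties troponin to tropomyosin, had 10.05, 10.21, 10.27 and 10.27 on the collagen diet and 10.23, 10.25, 10.22 and 10.03 on the control diet. *Tnni2* (1416889_at), the fast inhibitory subunit, had 10.97, 11.09, 11.13 and 11.13 on the collagen diet and 11.10, 11.11, 11.10 and 10.97 on the control diet. In these 3 genes collagen replicate 1 and control replicate 4 lay below the other 6 arrays, which kept to a narrower band. *Acta1* (1427735_a_at), skeletal alpha-actin, did the same within a narrow range, with 12.712, 12.732, 12.739 and 12.737 on the collagen diet and 12.732, 12.737, 12.732 and 12.713 on the control diet. The 4 exceptions were the slow troponins *Tnnt1*, *Tnni1* and *Tnnc1* and *Tpm2*. *Tpm2* (1419738_a_at), beta-tropomyosin, was flat in its highest probe set, with an SD of 5.93e-06. Its other 3 probe sets did have collagen replicate 1 and control replicate 4 lowest, for example 1449577_x_at with 9.65, 9.74, 9.75 and 9.76 on the collagen diet and 9.74, 9.75, 9.73 and 9.66 on the control diet.

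All 10 genes of the Z-disc, titin and the M-band, which anchor the filaments, had the same 2 low arrays. *Csrp3* (1460318_at), the muscle LIM protein, had 8.01, 8.65, 8.70 and 8.46 on the collagen diet and 8.56, 8.74, 8.53 and 8.03 on the control diet. *Actn2* (1448327_at), the alpha-actinin of all fibres, had 7.71, 8.07, 8.35 and 8.16 on the collagen diet and 8.07, 8.30, 8.04 and 7.77 on the control diet. *Tcap* (1423145_a_at), telethonin, which caps titin at the Z-disc, had 8.42, 8.71, 8.89 and 8.91 on the collagen diet and 8.75, 8.88, 8.78 and 8.55 on the control diet. In *Csrp3* and *Actn2* control replicate 2 was among the 2 highest arrays, while *Actn3* (1418677_at), the alpha-actinin of fast fibres, had 8.706, 8.851, 8.936 and 9.003 on the collagen diet and 8.899, 8.779, 8.935 and 8.686 on the control diet, with control replicate 2 the third lowest of the 8. *Ttn* (1427445_a_at), titin, the spring from Z-disc to M-band, had 10.06, 10.23, 10.31 and 10.29 on the collagen diet and 10.25, 10.28, 10.21 and 10.01 on the control diet, and 4 of its other 5 probe sets had the same 2 low arrays. The other members of this group were *Myoz1*, *Myoz2*, *Ldb3*, *Myom1* and *Myom2*, with SDs between 0.0597 and 0.152.

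Calcium handling genes followed in 7 of 8 cases. *Ryr1* (1427306_at), the calcium release channel of the sarcoplasmic reticulum, had 7.85, 8.02, 8.18 and 8.15 on the collagen diet and 8.05, 8.15, 8.06 and 7.85 on the control diet. *Casq1* (1422598_at), calsequestrin, which binds calcium in the store, had 8.40, 8.57, 8.68 and 8.67 on the collagen diet and 8.57, 8.60, 8.60 and 8.39 on the control diet. *Trdn* (1426143_at), triadin, which links calsequestrin to the channel, had 8.40, 8.56, 8.67 and 8.65 on the collagen diet and 8.56, 8.63, 8.56 and 8.39 on the control diet. The release channel and its partners were thus low in the same 2 arrays and highest in collagen replicate 3, as were *Cacna1s*, the voltage sensor, *Atp2a1*, the fast-fibre pump SERCA1, and *Pvalb*, the soluble calcium buffer of fast fibres. *Pvalb* (1417653_at) had 10.42, 10.52, 10.57 and 10.56 on the collagen diet and 10.51, 10.50, 10.54 and 10.40 on the control diet. *Jph2* (1455404_at), a junctophilin that holds the reticulum to the cell surface, had the pattern within a range of 0.00741, with 7.7033, 7.7069, 7.7107 and 7.7099 on the collagen diet and 7.7078, 7.7074, 7.7078 and 7.7034 on the control diet. *Jph1* (1421520_at), its paralog, did not, with an SD of 4.78e-06, but its second probe set, 1438428_at, had 6.820, 6.836, 6.843 and 6.846 on the collagen diet and 6.840, 6.841, 6.839 and 6.820 on the control diet and so the same 2 low arrays.

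All 4 genes of energy and oxygen supply had the same 2 low arrays and collagen replicate 3 as the highest. *Mb* (1451203_at), the oxygen store myoglobin, had 9.02, 9.37, 9.66 and 9.54 on the collagen diet and 9.38, 9.59, 9.26 and 9.08 on the control diet. *Eno3* (1417951_at), muscle enolase of glycolysis, had 10.14, 10.29, 10.34 and 10.34 on the collagen diet and 10.29, 10.32, 10.29 and 10.15 on the control diet. Collagen replicate 1 was the lowest array in both. *Pygm* (1448602_at), muscle glycogen phosphorylase, had 8.11, 8.24, 8.32 and 8.31 on the collagen diet and 8.26, 8.29, 8.26 and 8.13 on the control diet. *Ckm* (1417614_at), muscle creatine kinase, which regenerates ATP, had 11.00, 11.13, 11.17 and 11.17 on the collagen diet and 11.13, 11.15, 11.15 and 11.01 on the control diet. *Mb* ranged over 0.639 on the log2 scale and separated control replicate 2 from control replicates 1 and 3, whereas in *Ckm* these 3 arrays lay close together.

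The other muscle proteins also had the 2 low arrays, but not the same order above them. *Smpx* (1418095_at), a small muscle protein known to respond to stretch, had 8.12, 8.56, 8.69 and 8.66 on the collagen diet and 8.58, 8.52, 8.54 and 8.08 on the control diet. *Apobec2* (1417889_at), a muscle member of the deaminase family, had 8.66, 8.99, 9.08 and 9.04 on the collagen diet and 8.98, 9.07, 8.92 and 8.62 on the control diet. Control replicate 4 was the lowest array in both and collagen replicate 3 the highest. *Asb5* (1449356_at), a subunit of a ubiquitin ligase, had 7.16, 7.67, 7.48 and 7.49 on the collagen diet and 7.64, 7.42, 7.63 and 7.10 on the control diet. *Klhl40* (1431043_at), which stabilises thin filament proteins, had 7.12, 7.53, 7.40 and 7.35 on the collagen diet and 7.53, 7.33, 7.61 and 7.12 on the control diet. In *Asb5* and *Klhl40* the 3 highest arrays were collagen replicate 2 and control replicates 1 and 3, and collagen replicate 3, the highest array of *Smpx* and *Apobec2*, lay below them.

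Fast and slow fibre genes both had their highest scores in collagen replicates 3 and 4, which lay close together in the fast score and apart in the slow score. The score of 14 fast fibre genes was -1.34, 0.21, 0.87 and 0.87 on the collagen diet and 0.27, 0.19, 0.33 and -1.40 on the control diet. The score of 8 slow fibre genes was -0.66, -0.28, 1.91 and 0.29 on the collagen diet and -0.35, 0.20, -0.28 and -0.83 on the control diet. Collagen replicate 3 was the highest array of all 8 slow fibre genes and of 10 of 14 fast fibre genes, and the other 4, *Myh4*, *Actn3*, *Myoz1* and *Mybpc2*, were highest in collagen replicate 4. The score weighs each gene alike, and 5 of the 8 slow fibre genes had an SD not above the 99th percentile. *Myl3* spanned only 8.80e-05, and of its other 2 probe sets 1427768_s_at was highest in collagen replicate 3 and 1427769_x_at in collagen replicate 2. The 2 low arrays were lowest in 13 of 14 fast fibre genes, with *Myh4* as the exception, and in 3 of 8 slow fibre genes, *Myl2*, *Myoz2* and *Mybpc1*. Fast minus slow, the score difference was -0.68, 0.49, -1.04 and 0.58 on the collagen diet and 0.62, -0.01, 0.61 and -0.57 on the control diet in SD units. On the deposited log2 scale the same difference was -0.113, 0.026, 0.053 and 0.081 on the collagen diet and 0.032, -0.007, 0.040 and -0.113 on the control diet, so that collagen replicate 3 turned from the lowest array to the second highest. This scale gives weight to the genes with the largest SDs, which were mostly the fast ones.

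Fast and slow copies of the same protein are set side by side here. The slow troponin C *Tnnc1* (1418370_at), the calcium sensor, had 6.7978, 6.7981, 6.8016 and 6.7996 on the collagen diet and 6.7975, 6.7976, 6.7981 and 6.7975 on the control diet. The fast troponin C *Tnnc2* (1417464_at) had 11.77, 11.84, 11.86 and 11.86 on the collagen diet and 11.84, 11.84, 11.84 and 11.77 on the control diet. The slow copy was thus high in collagen replicate 3 and, less so, in collagen replicate 4, and nearly level in the others, while the fast copy separated the 2 low arrays from 6 that were alike. The slow inhibitory subunit *Tnni1* (1450813_a_at) had 6.5981, 6.5982, 6.5993 and 6.5984 on the collagen diet and 6.5982, 6.5980, 6.5982 and 6.5981 on the control diet, against the *Tnni2* values above. *Tnni1* lies below the filter on low levels and was not tested. The slow troponin T *Tnnt1* (1419606_a_at) had 6.7910, 6.7903, 6.7971 and 6.7929 on the collagen diet and 6.7928, 6.7930, 6.7931 and 6.7898 on the control diet. The slow heavy chain *Myh7* (1448553_at) had 7.2102, 7.2107, 7.2140 and 7.2117 on the collagen diet and 7.2106, 7.2114, 7.2103 and 7.2105 on the control diet. All of these slow genes stood out in collagen replicate 3, by at most 0.0073 between the highest and the lowest array.

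Slow genes with larger SDs gave the same array as the highest. The slow regulatory light chain *Myl2* (1448394_at) had 5.999, 6.002, 6.192 and 6.097 on the collagen diet and 6.031, 6.036, 6.043 and 5.998 on the control diet, against the values of its fast counterpart *Mylpf* above. It lies below the filter on low levels and was not tested. The slow essential light chain *Myl3* (1428266_at) was flat, with 6.89909, 6.89908, 6.89912 and 6.89903 on the collagen diet and 6.89903, 6.89909, 6.89905 and 6.89905 on the control diet. *Mybpc1* (1455645_at), slow myosin binding protein C, had 8.78, 8.98, 9.09 and 9.03 on the collagen diet and 8.98, 9.08, 8.93 and 8.79 on the control diet. *Myoz2* (1418769_at), the calsarcin of slow fibres that binds calcineurin, had 6.67, 6.79, 6.99 and 6.89 on the collagen diet and 6.81, 6.98, 6.78 and 6.68 on the control diet, and its fast copy *Myoz1* (1460202_at) had 8.81, 8.91, 8.96 and 8.98 on the collagen diet and 8.92, 8.94, 8.93 and 8.82 on the control diet. *Mybpc1* and *Myoz2* were high in control replicate 2, next to collagen replicate 3, whereas in *Mybpc2* control replicate 2 lay below control replicates 1 and 3.

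Control replicate 2 combined a low *Myh4* value with high *Myh2*, *Mybpc1*, *Myoz2* and *Csrp3* values. The other slow fibre genes were split in this array. *Tnni1*, *Tnnc1* and *Myl2* deviated from their means by -0.79, -0.71 and -0.20 SD, and *Myh7*, *Tnnt1* and *Myl3* by 0.21, 0.21 and 0.69 SD. In within-group SD units, the deviation of *Myh2* minus that of *Myh4* was 2.48 in this array and between -0.98 and 0.68 in the other 7. The second *Myh4* probe set, 1458368_at, had 6.25, 6.29, 6.28 and 6.33 on the collagen diet and 6.30, 6.21, 6.31 and 6.22 on the control diet, and control replicate 2 was the lowest array in it as well. In 6 fast genes, *Myh4*, *Actn3*, *Mybpc2*, *Myl1*, *Tnnc2* and *Pvalb*, control replicate 2 lay below control replicates 1 and 3, and in *Mylpf*, *Tnnt3*, *Tnni2*, *Myh1*, *Myh2*, *Atp2a1* and *Myoz1* it was the highest control array. These values come from a single array and were not tested.

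**Figure D3:**
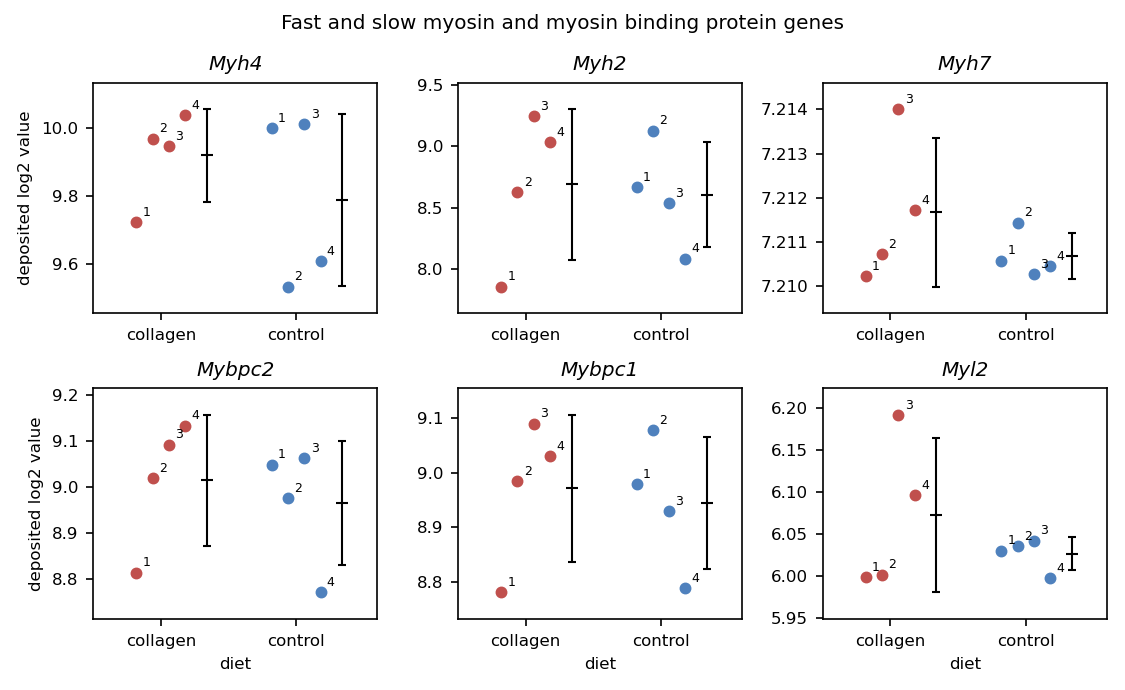
Deposited log2 values of fast (*Myh4*, *Myh2*, *Mybpc2*) and slow (*Myh7*, *Mybpc1*, *Myl2*) thick filament genes in each array (points, labelled by replicate number), with the mean and SD of each diet (black, n = 4). The y axes differ between panels and do not start at 0. *Myh4* is low in control replicate 2, where *Myh2* and *Mybpc1* are high, and the 3 slow genes are highest in collagen replicate 3.

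All the myosin heavy chain genes listed here except *Myh7* are direct neighbours on chromosome 11, in the order *Myh3*, *Myh2*, *Myh1*, *Myh4* and *Myh8*, with 0 other protein-coding genes between them in the RefSeq table of GRCm38.p6. *Myh3* and *Myh8*, the embryonic and perinatal chains at the ends of this cluster, lay below the filter on low levels. *Myh3* (1427115_at) had 6.16680, 6.16685, 6.16694 and 6.16682 on the collagen diet and 6.16687, 6.16689, 6.16690 and 6.16684 on the control diet. *Myh8* (1426650_at) had 6.0876, 6.0879, 6.0882 and 6.0881 on the collagen diet and 6.0882, 6.0882, 6.0879 and 6.0877 on the control diet. *Myh8* had the same 2 low arrays as *Myh1* and *Myh2*, and *Myh3* did not. The genes *Tnni2* and *Tnnt3* are also near neighbours, on chromosome 7, with 1 protein-coding gene between them.

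The promoters of *Myh4* and *Myh2* are shown because these 2 neighbours differed in control replicate 2, and those of *Acta1* and *Ckm* because both are standard muscle promoters whose genes kept to the common pattern. Each is the stretch of 250 bases before the start of transcription in RefSeq GRCm38.p6, written 5′ to 3′ along the gene, at chr11:67237562-67237811 (+ strand) for *Myh4*, chr11:67170777-67171026 (+ strand) for *Myh2*, chr8:123894776-123895025 (- strand) for *Acta1* and chr7:19410844-19411093 (+ strand) for *Ckm*. Capitals mark 4 motifs searched on both strands: CANNTG, the E-box that myogenic factors bind, the MEF2 motif of CTA and TAG with any 4 bases between them, CATTCC, the MCAT element, and TATAAA, the TATA box.
Myh4: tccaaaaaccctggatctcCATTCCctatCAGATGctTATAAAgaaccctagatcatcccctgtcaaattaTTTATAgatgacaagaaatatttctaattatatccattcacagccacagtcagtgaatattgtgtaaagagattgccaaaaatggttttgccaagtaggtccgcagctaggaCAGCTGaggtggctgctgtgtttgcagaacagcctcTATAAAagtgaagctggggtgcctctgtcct
Myh2: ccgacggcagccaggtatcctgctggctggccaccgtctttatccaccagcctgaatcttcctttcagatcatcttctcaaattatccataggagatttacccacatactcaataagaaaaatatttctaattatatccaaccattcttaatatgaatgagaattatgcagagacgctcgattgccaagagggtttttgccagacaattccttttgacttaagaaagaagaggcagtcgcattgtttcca
Acta1: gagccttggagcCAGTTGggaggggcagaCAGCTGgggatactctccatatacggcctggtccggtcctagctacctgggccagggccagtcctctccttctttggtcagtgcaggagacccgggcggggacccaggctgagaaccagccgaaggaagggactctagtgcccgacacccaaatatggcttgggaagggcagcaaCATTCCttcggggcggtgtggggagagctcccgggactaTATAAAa
Ckm: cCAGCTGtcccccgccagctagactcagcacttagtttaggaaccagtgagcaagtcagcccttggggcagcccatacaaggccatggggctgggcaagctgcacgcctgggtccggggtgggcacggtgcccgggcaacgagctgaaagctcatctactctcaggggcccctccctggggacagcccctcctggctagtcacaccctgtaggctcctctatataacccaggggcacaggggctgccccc
*Myh4* held 2 E-boxes, 1 MCAT element and 3 matches to TATAAA, and *Myh2* held 0 matches to any of the 4 motifs in this window. *Acta1* held 2 E-boxes, 1 MCAT element and 1 TATAAA match, and *Ckm* 1 E-box. RefSeq promoter windows were matched to 38 of the 47 genes by symbol, 49 windows in all. An E-box was found in 83.7% of these windows, against 66.2% of all 32851 windows, an MCAT element in 22.4% against 12.6%, TATAAA in 20.4% against 12.4% and the MEF2 motif in 8.16% against 3.20%. A match is a description of the letters and shows no binding.

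Between the diets, no muscle gene passed the test and the groups overlapped in every one. Of the 43 members tested, 0 had an adjusted p below 0.05 in limma, against 0% of all 12735 genes tested. At an unadjusted p below 0.05 stood 0 members, against 5.36% of all genes (1.21% higher and 4.15% lower on the collagen diet), and 0 had groups that did not overlap, against 3.31%. On the collagen diet 39 members were higher and 4 lower, with a median difference of 0.22 SD and a range of -0.83 to 1.68 SD. Over all genes 45.5% were higher and the median was -0.08 SD. By role, 9 of 9 thick filament genes tested were above 0, 7 of 8 of the thin filament, 8 of 10 of the Z-disc, titin and M-band, 8 of 8 of calcium handling, 4 of 4 of energy and oxygen and 3 of 4 other muscle proteins. The fast fibre genes had a median of 0.33 SD with 14 of 14 above 0, and the slow fibre genes one of 0.47 SD with 6 of 6 above 0. The lower members were *Tpm2*, *Klhl40*, *Tcap* and *Csrp3*. The members share their arrays, so that these 39 genes are not independent of each other.

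The member with the smallest p among those higher on the collagen diet was *Jph1*, with 7.322465, 7.322474, 7.322472 and 7.322473 on the collagen diet and 7.322461, 7.322469, 7.322463 and 7.322466 on the control diet. The difference was 1.68 SD (adjusted p = 0.965 and unadjusted p = 0.0650 in limma, higher in 3 of 4 collagen arrays than in every control array). Its values span 1.26e-05 on the deposited scale, its difference turned to -0.11 SD after each array was centred on its median, and the other *Jph1* probe set had the common pattern described above. The next was *Tnnc1*, with 6.7993 ± 0.0018 on the collagen diet and 6.7976 ± 0.0003 on the control diet (SD, n = 4 each) and a difference of 1.31 SD (adjusted p = 0.999 in limma). The lower member with the smallest p was *Tpm2*, with 11.409105, 11.409119, 11.409110 and 11.409122 on the collagen diet and 11.409117, 11.409118, 11.409123 and 11.409118 on the control diet in the flat probe set, a difference of -0.83 SD (adjusted p = 0.999 in limma). The mean of all 4 *Tpm2* probe sets gave 0.20 SD. *Myh4* averaged 9.92 ± 0.14 on the collagen diet and 9.79 ± 0.25 on the control diet (SD, n = 4 each), a difference of 0.65 SD (adjusted p = 0.999 in limma). For *Ckm* the means were 11.12 ± 0.08 on the collagen diet and 11.11 ± 0.07 on the control diet (SD, n = 4 each) and for *Acta1* 12.730 ± 0.012 on the collagen diet and 12.728 ± 0.010 on the control diet (SD, n = 4 each), each with a difference well within the spread of either diet.

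The direction of the median difference rested on single arrays. Without collagen replicate 1 the median of the 43 members was 0.94 SD with 42 higher, and without control replicate 4 it was -0.23 SD with 8 higher and 35 lower. Without collagen replicate 3 it was -0.05 SD with 16 higher, and without collagen replicate 4 it was 0.04 SD with 25 higher. Without both low arrays it was 0.74 SD with 39 higher. In that setting 2 of the 43 members, *Myl1* and *Jph1*, had an unadjusted p below 0.05 in limma, against 640 of all 12735 genes. After adjustment 0 members were below 0.05. Leaving out control replicates 1, 2 or 3 or collagen replicate 2 kept the median between 0.21 and 0.40 SD. In each of these settings 0 members had an adjusted p below 0.05.

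**Figure D4:**
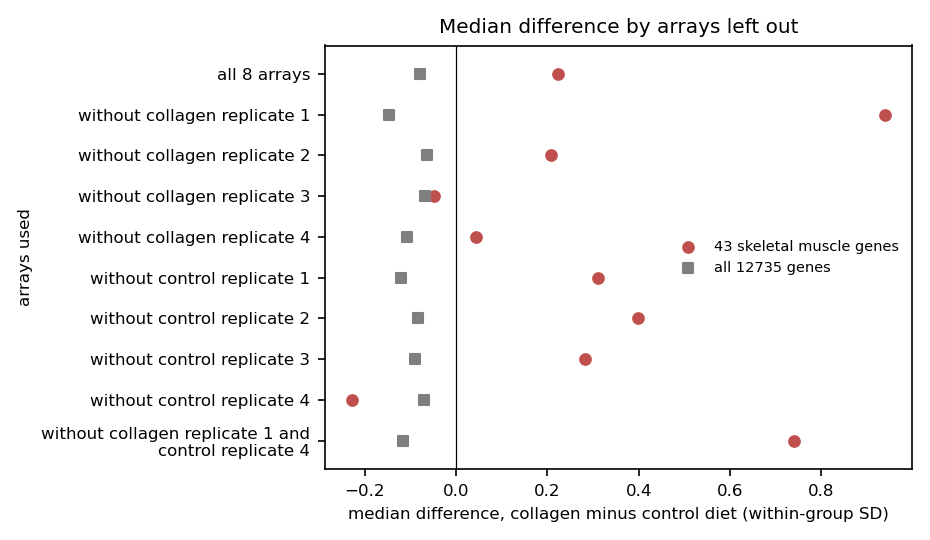
Median difference, collagen minus control diet, in within-group SD (x axis), of the 43 muscle genes tested and of all 12735 genes, with all 8 arrays and with the arrays named on the y axis left out. The median of the muscle genes lies between -0.23 and 0.94 SD, while that of all genes stays between -0.15 and -0.06 SD.

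Most muscle genes of a further list had the same 2 low arrays. That list was also made with earlier results of these data known. Of its 54 genes measured, 43 had collagen replicate 1 and control replicate 4 as their lowest 2 arrays, against 4.99% of all genes. Above the 99th percentile of SD lay 32. In the comparison of the diets 49 were tested, of which 44 lay higher on the collagen diet, against 45.5% of all genes tested. The median difference was 0.28 SD. In limma 0 passed, and 1 of the 49 had an unadjusted p below 0.05, against 5.36% of all genes tested. That gene was *Casq2*, the calsequestrin of slow and cardiac muscle, with 7.5524820, 7.5524860, 7.5524839 and 7.5524825 on the collagen diet and 7.5524883, 7.5525000, 7.5524956 and 7.5524901 on the control diet. Its difference was -2.48 SD (adjusted p = 0.820 in limma), lower in all 4 collagen arrays than in every control array. Groups that did not overlap were found in 3.31% of all genes tested. The *Casq2* values were nearly flat, with an SD of 6.44e-06, below the median of 1.18e-05 over all genes. *Hspb6* (1436332_at), a small heat shock protein of muscle, had 8.59, 8.81, 8.94 and 8.89 on the collagen diet and 8.82, 8.93, 8.81 and 8.61 on the control diet. *Myot* (1418155_at), the Z-disc protein myotilin, had 7.97, 8.18, 8.28 and 8.27 on the collagen diet and 8.18, 8.24, 8.17 and 7.96 on the control diet. *Klhl41* (1444494_at), a relative of *Klhl40* in the thin filament, had 7.18, 7.37, 7.41 and 7.39 on the collagen diet and 7.40, 7.41, 7.39 and 7.16 on the control diet. These 3 genes had the largest SDs of the list and the same 2 low arrays. Next by SD were *Pgam2* (1418373_at), muscle phosphoglycerate mutase, *Lmod2* (1452345_at), a leiomodin of the thin filament, and *Cox6a2* (1417607_at), a muscle subunit of cytochrome c oxidase, with SDs of 0.0959, 0.0837 and 0.0828 and the same 2 low arrays.

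Genes of no list here with an SD above the 99th percentile and the same 2 low arrays numbered 56. Ranked by the gap between the second and the third lowest array as a share of the gene's range, the first was *Pdlim3* (1449178_at), a Z-disc protein, with 8.37, 8.50, 8.55 and 8.51 on the collagen diet and 8.50, 8.52, 8.53 and 8.38 on the control diet and a gap of 70.3%. It was followed by *Itm2a*, *Cmya5*, which encodes myospryn, *Ankrd2*, *Mlf1*, *Abra*, a muscle protein that binds actin, *Rbm24*, a splicing factor of muscle, *Neu2*, *Tpm1*, an alpha-tropomyosin, and *Adssl1*, the muscle adenylosuccinate synthase, with gaps of 57.7% to 70.2%. Over the 38 members with these low arrays the gap had a median of 49.7% and ran from 1.56% to 77.4%. The genes named here were picked for large gaps and the members were not, so the 2 cannot be compared by it.

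Some regulators of muscle had the same low arrays. Of 14 genes of myogenic regulators and satellite cells, 6 had collagen replicate 1 and control replicate 4 lowest. Only 2 of the 14 had an SD above the 99th percentile. Of the 6, *Myf5* and *Mef2a* were nearly flat, with SDs of 8.11e-06 and 2.39e-05. *Myf6* (1419150_at), the regulator of mature fibres, had 6.834, 6.895, 6.929 and 6.933 on the collagen diet and 6.903, 6.897, 6.900 and 6.831 on the control diet. *Mef2c* (1424852_at), a transcription factor of contractile genes, had 7.735, 7.753, 7.774 and 7.770 on the collagen diet and 7.760, 7.770, 7.758 and 7.739 on the control diet. *Myod1* (1418420_at), the determination factor of the muscle lineage, had 6.5782, 6.5787, 6.5786 and 6.5786 on the collagen diet and 6.5784, 6.5784, 6.5785 and 6.5782 on the control diet. *Pax7* (1452510_at), which marks satellite cells, was flat with an SD of 3.21e-07. Of 12 genes of the neuromuscular junction 3 had these low arrays, and 0 of 11 cardiac genes did. In each of these 2 lists 0 genes had an SD above the 99th percentile.

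Each list of markers of other cell types in skin held 0 to 3 genes with the 2 low arrays. Of 10 smooth muscle genes 3 had them, *Des*, *Synm* and *Lmod1*. *Des* (1426731_at), desmin, had 9.05, 9.10, 9.13 and 9.11 on the collagen diet and 9.09, 9.12, 9.10 and 9.05 on the control diet. It also stands in the list of further skeletal muscle genes. *Synm* (1457275_at), synemin, is also expressed by skeletal muscle. *Lmod1* (1427485_at) was nearly flat, with an SD of 1.37e-05. *Acta2* (1416454_s_at), smooth muscle actin, was flat, with an SD of 8.53e-06, and *Myh11*, the smooth muscle heavy chain, had an SD of 4.21e-05. The smooth muscle score was -0.16, -0.51, 0.68 and 0.36 on the collagen diet and -0.42, 0.22, -0.64 and 0.47 on the control diet. Of 10 white adipocyte genes, 8 basal keratinocyte genes, 8 cornified layer genes and 6 Schwann cell genes 0 had these low arrays, and of 8 dermal fibroblast genes 2 did. *Col1a1* (1423669_at), a chain of type I collagen, was 1 of the 2, with 9.726, 9.735, 9.743 and 9.730 on the collagen diet and 9.730, 9.733, 9.739 and 9.728 on the control diet. In the list of brown adipocyte genes 3 of 7 had them, *Cox8b*, *Fabp3* and *Ppargc1a*, which skeletal muscle also expresses. *Cox8b* also stands in the list of further skeletal muscle genes. *Ucp1*, the uncoupling protein that defines brown fat, had an SD of 2.79e-06. Of 7 tendon and fascia genes 2 had these low arrays, *Thbs4* among them. Between the diets 0 genes of these lists passed in limma. At an unadjusted p below 0.05 in limma stood 2 of 6 brown adipocyte and 2 of 10 smooth muscle genes tested, against 5.36% of all genes. In both lists 1 gene had groups that did not overlap, against 3.31% of all genes. The other lists held 0 genes of either kind.

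The scores of other cell types are given here per array. The white adipocyte score was 0.52, 0.19, -0.19 and -0.27 on the collagen diet and -1.15, -0.35, 0.62 and 0.62 on the control diet. The basal keratinocyte score was 0.51, 0.60, -0.34 and -0.51 on the collagen diet and -0.62, 0.23, -0.31 and 0.44 on the control diet. The dermal fibroblast score was -0.59, -0.30, 1.27 and -0.04 on the collagen diet and -0.87, -0.44, 0.83 and 0.14 on the control diet. The brown adipocyte score was -0.87, -0.67, -0.44 and 0.21 on the collagen diet and 0.57, 0.94, 0.30 and -0.04 on the control diet. The tendon and fascia score was -0.70, -0.58, 1.05 and 0.43 on the collagen diet and -0.19, 0.48, -0.18 and -0.31 on the control diet. Within each diet the tendon and fascia score ran in the order of the muscle score, and the dermal fibroblast score did so on the collagen diet. Collagen replicate 1 and control replicate 4 had positive scores for white adipocytes and for basal keratinocytes and scores of opposite sign for dermal fibroblasts. Their scores were negative for tendon and fascia and for brown adipocytes. The summed log2 level of the 10 white adipocyte genes ran from 98.60 to 98.62 on the collagen diet and from 98.59 to 98.62 on the control diet, and that of the 47 muscle genes from 403.63 to 414.91 on the collagen diet and from 403.82 to 412.78 on the control diet. The part of these other cell types in the muscle values was not tested. The mean of all probe sets was also lowest in the same 2 arrays, 7.2785 in collagen replicate 1 and 7.2786 in control replicate 4, against 7.2790 to 7.2791 in the other 6. So was their median, 6.8532 in both against 6.8534 to 6.8535 in the other 6. The upper quartile was 7.9542 in collagen replicate 1 and 7.9548 in control replicate 4, against 7.9554 to 7.9559. The cause of these shifts was not tested.

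**Figure D5:**
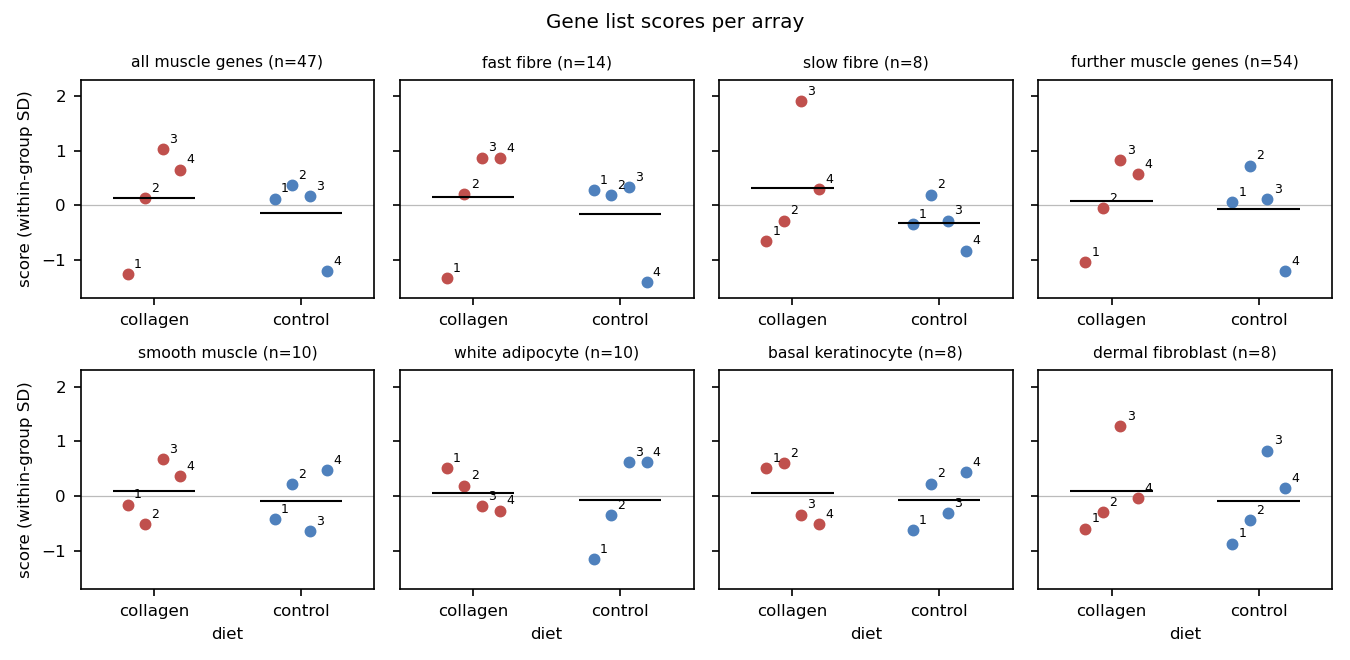
Score of each gene list in each array (points, labelled by replicate number) in within-group SD units, with the mean of each diet (black line, n = 4 arrays). In the top row, collagen replicate 1 and control replicate 4 lie lowest in all 4 muscle lists, and in the slow fibre list collagen replicate 3 stands at 1.91. In the bottom row these 2 arrays are not the lowest pair in any of the 4 lists.

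Further probe sets of the members mostly gave the same picture. The 47 genes have 81 probe sets with that symbol alone, and the 34 that were not used in the tests above belong to 17 genes. In 25 of these 34, collagen replicate 1 and control replicate 4 were the lowest 2 arrays. Of the 18 with an SD above the 99th percentile of the genes, 17 had them, and the exception was the second *Myh4* probe set.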

How the data were processed

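Total RNA (200 ng) of 8 dorsal skin samples was copied from the 3′ end with biotin label and hybridised to oligonucleotide arrays, per the labels' protocols. Judged from their range, the deposited values are log2 values. The submitters' processing notes name R 2.7.2. Not given in the sources used here are the summarization, normalization and genome build. Samples were grouped by their titles.

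Of 45101 probe sets 64 are controls and were left out, and 34945 of the others name 1 gene symbol in the platform annotation, which can be old, 932 several and 9160 none. Each gene took its probe set with the highest mean. Collagen minus control differences came from limma 3.58.1 (R 4.3.3), by lmFit and then eBayes with a trend on mean level, with two-sided p-values adjusted by Benjamini-Hochberg over 12735 genes (threshold 0.05). Identical values between any pair of arrays made up at most 0.0155%. The 47 members, the other lists, the alternatives and the tests were chosen with earlier results of these data known. Genes shown in full are the 3 with the largest SD in each role list, the fast and slow pairs, the developmental myosins and the members with the smallest p in each direction, and some further members for contrast, chosen after their values were seen. Alternatives were other filters, quantile normalization, median centring, no trend, robust variances, the mean of all probe sets, a replicate block and arrays left out. Protein sequences were not used here.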

Additional observations from a re-analysis of the deposited data

Results flagged for a closer look

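Within each diet the gap between an extreme array and its nearest neighbour was set against the range of the 4 arrays (Dixon's test, with its critical value for 4 samples). Chance passes about 1 in 20 groups, and the 94 groups of the 47 genes move together. No other single genes were screened, so the share over all genes is not known and the count cannot be set against it. In 12 of the 94 groups 1 array stood apart, and it was the low value of control replicate 4 each time: *Mylpf* (11.017), *Myl1* (10.448), *Tnnt1* (6.7898), *Tnnt3* (10.03), *Tnni2* (10.967), *Tnnc2* (11.773), *Myoz1* (8.815), *Ldb3* (7.9156), *Casq1* (8.3893), *Jph2* (7.7034), *Ckm* (11.009) and *Smpx* (8.081). None of the 47 collagen-diet groups passed, in 45 of which replicate 1 was the lowest array. Among the scores, control replicate 4 stood apart in the score of all 47 genes (-1.2089), of the thin filament (-1.059) and of fast fibre genes (-1.3995), and collagen replicate 1 in that of the other muscle proteins (-1.3137).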

How the results depend on the processing

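In all 17 alternative settings 0 muscle genes had an adjusted p below 0.05. Over all genes the count was 0, and 1 with the lowest 50% of genes left out, with 0 to 1 when arrays were left out in turn. At an unadjusted p below 0.05 there were 682 genes, 73 after quantile normalization, 78 after median centring and 550 to 787 with an array left out. Of the 43 muscle genes tested, 0 stood at this level with all arrays. Without collagen replicate 1 there were 2 (*Jph1*, *Tnnc1*), against 696 of all 12735 genes. Without control replicate 2 there was 1 (*Jph1*), against 638 genes. Without both collagen replicate 1 and control replicate 4 there were 2, against 640 genes. With 1 array left out the count of muscle genes was 0 to 2. With an array left out, 8 to 42 muscle genes were higher and the median lay between -0.23 and 0.94 SD, reversed without collagen replicate 3 (-0.05 SD) and control replicate 4 (-0.23 SD). After quantile normalization and median centring the median was 0.21 SD in both, while 30.6% and 13.5% of all genes were higher. *Jph1* turned to -0.11 SD after median centring, and *Tpm2* to 0.20 SD with the mean of all its probe sets and to 0 after quantile normalization. The cause of these changes was not tested, other than the array left out or probe sets added. Fast minus slow, the score of collagen replicate 3 turned to 0.053 on the deposited log2 scale. The member scores per array moved by less than the spread between arrays in each alternative, and the lowest 2 arrays stayed the same. The labels do not say that the replicate numbers pair the arrays. Over the genes above the filter, deviations of same-numbered arrays correlated at -0.59, -0.19, 0.23 and -0.82 on the deposited scale, where the genes with the largest SDs weigh most. In within-group SD units these correlations were 0.004, -0.02, 0.18 and -0.07. With the replicate block 1 muscle gene (*Jph1*) had an unadjusted p below 0.05, 665 genes did in all, and the median was 0.19 SD.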

Other observations

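*Xirp1* (1419220_at), which encodes an actin-binding protein of muscle, had an array order like that of *Asb5* and *Klhl40*. It was chosen after its values were seen, with 6.86, 7.05, 6.93 and 6.89 on the collagen diet and 7.06, 6.92, 7.07 and 6.84 on the control diet. The 3 highest arrays were again collagen replicate 2 and control replicates 1 and 3.

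Among the 50 genes with the largest SD 12 were in no list used here, and 8 of these 12 had collagen replicate 1 and control replicate 4 as the lowest 2 arrays. The 4 others, named after their values were seen, were *H2-Eb1*, a chain of MHC class II, *Jchain*, which joins immunoglobulins, *Iigp1*, an interferon-induced GTPase, and *Cyp2g1*. *H2-Eb1* (1417025_at) had the second largest SD of all genes, 0.414, with 9.03, 9.23, 9.17 and 9.02 on the collagen diet and 9.24, 7.98, 9.11 and 9.10 on the control diet, and control replicate 2, the array with the lowest *Myh4* value, was also the lowest here.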
